A study of Mus musculus with 3 samples.

Results

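The genes described are 8 secreted cytokines of mouse dendritic cells: Il6, Lif and Osm of the interleukin 6 family, Tnf, the anti-inflammatory cytokine gene Il10, the colony-stimulating factor genes Csf1 and Csf3, and Tgfb1. They were taken by name, as every probe set whose platform annotation held exactly 1 gene symbol equal to one of these. This gave 13 probe sets of the 45101 on the array: 4 for Csf1, 2 each for Lif and Tgfb1, and 1 each for the other 5 genes. Counted as genes, these were 8 of the 18193 with a probe set of their own. All 8 were measured, meaning that the brightest probe set reached an intensity of 78.9, the median of all values, on at least 1 array, and 12299 genes in all met this level.

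Bone marrow of C57BL/6 females 6 weeks old was grown with murine GM-CSF at 20 ng/mL, and the nonadherent cells of day 7 were taken as dendritic cells. They then received PBS (the control), LPS at 1 µg/mL or PTX at 100 ng/mL for 24 h, and the RNA of each culture went onto 1 Affymetrix array, so that every group held 1 sample. LPS is the lipopolysaccharide of bacterial cell walls, which Toll-like receptor 4 senses; the labels do not say what PTX stands for. The strain entry of the PTX sample reads C57BL/7, and the other entries read C57BL/6; whether the cultures came from the same mouse is not stated. Each group is thus a GM-CSF culture of female marrow, in which cells other than dendritic cells were not sorted away. No replicate measures how far 2 such cultures differ.

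Interleukin 6, LIF and oncostatin M signal through receptors that share the chain encoded by Il6st and activate the kinases of the Jak family and the transcription factor Stat3. TNF acts through its receptors Tnfrsf1a and Tnfrsf1b on NF-kB, and dendritic cells and macrophages make it early after microbial stimuli. Interleukin 10 restrains the output of inflammatory cytokines by the same cells, M-CSF (Csf1) and G-CSF (Csf3) direct macrophage and granulocyte growth, and TGF-beta is stored in a latent form that must be activated.

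The LPS array differed from the others in ways that touch every LPS value below. The median intensity of its probe sets was 65.3, against 85.7 on the PBS array and 86.9 on the PTX array. By contrast, the bacterial poly-A controls read higher on it than on the PBS array in 24 of 24 cases (median log2 difference 0.26). Their median was -0.07 in PTX against PBS. Of 18 hybridization controls, 14 also read higher on the LPS array than on the PBS array (median 0.20, and 0.01 in PTX against PBS). The scaling on added controls below uses both sets. The median log2 difference of all measured genes in LPS against PBS was -0.08 as deposited, 0.31 after the arrays were set to a common median and -0.35 when they were scaled on the added bacterial controls. Of the genes 2-fold apart in this comparison, the share that was higher was 33.3%, 61.4% and 18.6% under these scalings, and 45.6% with quantile normalization and 54.7% with a common 75th percentile. In PTX against LPS the share was 68.7% as deposited and 37.3%, 85.7%, 53.2% and 43.8% under the same 4 alternatives in that order, while PTX against PBS stayed between 51.9% and 60.1%. Of the 9 dendritic cell markers, 8 were measured and Cd209a was not, and their summed intensity was 17234 (PBS), 27418 (LPS) and 19474 (PTX). Itgax read lower with both stimuli (2383, 1691 and 1294), and the maturation marker Ccr7 read higher (2163, 5689 and 3622), with log2 differences of 1.39 and 0.74. All 9 macrophage markers were measured too, with a summed intensity of 28074 (PBS), 46394 (LPS) and 42665 (PTX). The sum hides opposite directions with LPS. C1qa, C1qb and C1qc read lower with LPS (-0.65, -0.63 and -0.72) and higher with PTX (0.89, 0.74 and 0.99). The other macrophage markers read higher with LPS in their brightest probe sets. Neutrophil markers summed to 10540, 11985 and 5520, mostly through S100a8 and S100a9, with Elane and Mpo below the measured level. Mast cell markers summed to 389, 942 and 397, with Cpa3 at 96.3, 549.6 and 74.2, and stromal markers to 392, 779 and 419, with Dcn at 40.8, 372.8 and 52.5. T cell (488, 417 and 540), B cell (203, 173 and 189) and NK cell (260, 237 and 287) sums stayed low, with no B cell marker at the measured level in its brightest probe set. No marker was listed at 0, because the lowest value in the table is 1. In bulk RNA such as this, fewer cells of a type and less RNA per cell cannot be told apart, and the part of these cell types in the cytokine values was not tested.

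With LPS, Il6, Il10, Csf3, Lif and Tnf read at least 2-fold above the PBS array, and Csf1 read at least 2-fold below it. With PTX, Il6 and Tnf read at least 2-fold below PBS, and none of the 8 was 2-fold above. Differences are given on the log2(intensity + 16) scale, which understates those of dim probe sets, and a difference of at least 1 is 2-fold. In LPS against PBS 5 of 8 genes (62.5%) were higher, against 6.50% of all measured genes, and 1 of 8 (12.5%) was lower, which is near the 13.0% of all genes. In PTX against PBS 0 of 8 were higher (all genes 3.04%) and 2 of 8 (25%) were lower (2.37%). In PTX against LPS 0 of 8 were higher (13.7%) and 5 of 8 (62.5%) were lower (6.24%). The median over the 8 genes was 1.29, -0.48 and -1.49 in these comparisons, beside -0.08, 0.01 and 0.09 over all genes. Il10 and Lif, counted as higher with LPS and as lower in PTX against LPS, reached the measured level on the LPS array alone. The other Lif probe set, below that level on every array, was at -0.33 with LPS. With the measured level at the 75th percentile both genes dropped out. Of the 6 members then measured, 3 were higher with LPS and 3 were lower in PTX against LPS. With 1 array a group no test was possible, and comparisons that share an array are not independent of each other.

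**Figure D1:**
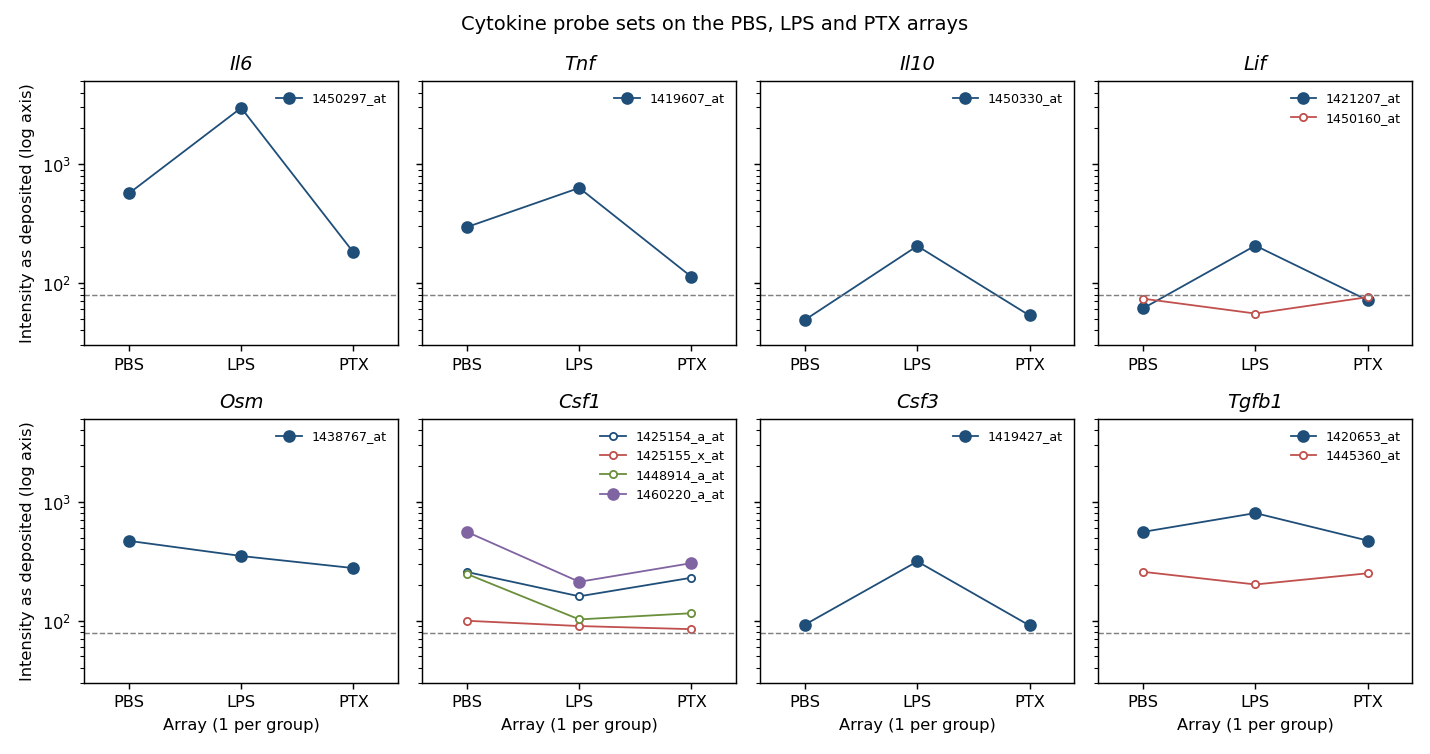
Intensity of each of the 13 probe sets (log axis) on the PBS, LPS and PTX arrays, 1 array per group, with no error bars because there were no replicates. Filled points are the probe set that represents the gene and open points its other probe sets. The dashed line is the measured level of 78.9. By filled points, Il6, Tnf, Il10, Csf3, Lif and Tgfb1 peak on the LPS array. Il6, Tnf, Osm, Tgfb1 and, by a small margin, Csf3 are lowest on the PTX array.

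Since no replicate gives an error, the disagreement between probe sets of 1 gene was used as a yardstick within the arrays. For 5519 genes with several measured probe sets, the log2 differences of the brightest 2 lay apart by a median of 0.46 in LPS against PBS, 0.15 in PTX against PBS and 0.50 in PTX against LPS. For 1 gene in 20 the gap exceeded 2.11, 0.72 and 2.16. This gap says how far a reading depends on the probes, and nothing about how far cultures differ. Probe sets of a gene lay closer to each other in PTX against PBS than in either comparison with the LPS array.

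Promoter windows are shown for 4 genes that read differently with the stimuli: Il6 and Tnf, which were higher with LPS and lower with PTX, Lif, which was higher with LPS alone, and Csf1, which was lower with LPS. Each window runs from 250 bases before to 50 bases after the gene's start in RefSeq (GRCm38.p6), written 5′ to 3′ on the gene's own strand. Capitals mark matches, on either strand, to 6 motifs: the NF-kB consensus, TGANTCA (AP-1), TGACGTCA (the cyclic AMP response element), TTGCNNAA (C/EBP), TTCNNNGAA (STAT) and TATAAA (the TATA box). RefSeq windows were matched for these genes and Tgfb1, and not for Il10, Osm and Csf3.
Il6 (chr5:30012864-30013163, plus strand): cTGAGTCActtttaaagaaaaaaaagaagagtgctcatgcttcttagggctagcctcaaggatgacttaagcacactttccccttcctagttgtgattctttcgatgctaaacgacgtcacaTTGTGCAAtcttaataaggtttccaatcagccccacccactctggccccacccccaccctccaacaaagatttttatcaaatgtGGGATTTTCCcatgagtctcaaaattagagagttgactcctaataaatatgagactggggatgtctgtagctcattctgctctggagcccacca
Tnf (chr17:35201958-35202257, minus strand): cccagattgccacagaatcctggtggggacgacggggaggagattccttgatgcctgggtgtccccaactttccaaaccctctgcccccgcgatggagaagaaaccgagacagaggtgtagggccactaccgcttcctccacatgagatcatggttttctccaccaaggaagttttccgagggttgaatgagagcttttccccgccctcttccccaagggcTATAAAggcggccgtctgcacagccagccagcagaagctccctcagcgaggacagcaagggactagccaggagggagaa
Lif (chr11:4257318-4257617, plus strand): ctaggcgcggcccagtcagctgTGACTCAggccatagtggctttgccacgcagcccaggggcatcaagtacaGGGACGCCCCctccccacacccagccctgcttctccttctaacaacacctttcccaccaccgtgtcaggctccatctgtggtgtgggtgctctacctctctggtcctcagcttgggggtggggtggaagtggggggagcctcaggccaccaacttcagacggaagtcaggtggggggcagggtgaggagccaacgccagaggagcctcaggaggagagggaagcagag
Csf1 (chr3:107760420-107760719, minus strand): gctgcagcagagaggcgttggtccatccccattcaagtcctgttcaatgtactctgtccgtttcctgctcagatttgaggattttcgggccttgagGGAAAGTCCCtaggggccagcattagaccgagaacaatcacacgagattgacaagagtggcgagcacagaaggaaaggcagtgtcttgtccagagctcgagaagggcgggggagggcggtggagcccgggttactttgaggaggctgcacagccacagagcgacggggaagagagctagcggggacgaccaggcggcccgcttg

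The Il6 window held 3 of the motifs: AP-1 at position -249 from the start, C/EBP at -128 and NF-kB at -44, which reads GGGATTTTCC. The Tnf window held the TATA box at -29 and no match to the other 5 patterns. The Lif window held AP-1 at -228 and a stretch at -178 that matches the NF-kB consensus on both strands. Csf1 held a match to NF-kB at -154, and so did Tgfb1 at -140. No printed match overlaps one of another motif. Over all 32851 windows, 8.46% held NF-kB, 7.81% AP-1, 10.8% C/EBP, 13.6% the TATA box, 8.30% STAT and 1.79% the cyclic AMP response element. A match describes these letters and is no evidence of binding, and a window without one says only that the letters are not in it.

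Il6, which encodes the inflammatory and acute phase cytokine interleukin 6, had the widest span of the 8. Its intensity was 567.8 with PBS, 2974 with LPS and 181.2 with PTX. All 3 readings were above the measured level, and they stood at the 85.7th, 97.3rd and 67.6th percentile of the probe sets of their arrays. The log2 difference was 2.36 in LPS against PBS (5.12-fold), -1.57 in PTX against PBS (2.96-fold lower) and -3.92 in PTX against LPS (15.2-fold lower). Among the 12299 measured genes these were the 103rd highest, the 115th lowest and the 9th lowest. Il6 lay outside the 95th percentile of the gap between probe sets in all 3 comparisons, and relative to the median of all genes it was at 2.44 with LPS and -1.57 with PTX. In LPS against PBS the other members lay inside that gap of 2.11: Il10 (1.76), Csf3 (1.61), Lif (1.53), Csf1 (-1.33) and Tnf (1.05) among them. Tnf lay outside the gap in both PTX comparisons. In PTX against PBS, where the gap was 0.72, Osm (-0.73) was barely outside and Csf1 was at -0.84. The 4 probe sets of Csf1 were themselves 0.85 apart in that comparison. Il10, Csf3 and Lif lay inside the gap in PTX against LPS.

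Tnf, the gene of tumour necrosis factor, followed the same order with smaller differences. It read 295.6 (PBS), 630.7 (LPS) and 112.7 (PTX), all above the measured level. The log2 differences were 1.05 with LPS, just past 2-fold, -1.28 with PTX, and -2.33 between PTX and LPS. The difference with LPS dropped below 2-fold with a pseudocount of 64 (0.95) and when the arrays were scaled on the added bacterial controls (0.79). The PTX reading was the lowest in each of the alternatives run, with a difference from PBS between -1.38 and -1.03. Il6 and Tnf were thus the only members at least 2-fold lower with PTX. The neutrophil marker sum, made up mostly of S100a8 and S100a9, was lowest on the PTX array too (5520 against 10540 with PBS). Any link between them was not tested.

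Il10, the gene of the anti-inflammatory cytokine interleukin 10, was above the measured level on the LPS array alone. Its intensity was 49.0 with PBS, 204.9 with LPS and 53.3 with PTX. The log2 difference was 1.76 in LPS against PBS, 0.09 in PTX against PBS and -1.67 in PTX against LPS. Unlike Il6 and Tnf, it had PBS and PTX readings close to each other, but both were below the measured level. Its difference in LPS against PBS was 1.25 with a pseudocount of 64 and 2.11 with median centring, the ends of its range over the 9 alternatives in which it was measured.

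Csf3, which encodes the granulocyte growth factor G-CSF, read 92.7 (PBS), 314.8 (LPS) and 91.0 (PTX). It was 1.61 higher with LPS on the log2 scale and differed by -0.02 with PTX, and this small value turned to 0.02 when scaled on the added controls. Csf1, the gene of M-CSF, read lower with both stimuli in its brightest probe set, 1460220_a_at, at 557.2 (PBS), 212.1 (LPS) and 304.6 (PTX). The log2 differences were -1.33 with LPS and -0.84 with PTX. A second probe set, 1448914_a_at, gave 246.7, 102.4 and 115.4, with -1.15 for LPS and a value for PTX just short of 2-fold.

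The remaining Csf1 probe sets showed less. 1425154_a_at read 256.5, 160.2 and 229.6 (-0.63 with LPS, -0.15 with PTX), and 1425155_x_at read 99.7, 90.0 and 84.8 (-0.13 and -0.20). All 4 were lower with LPS and lower with PTX than with PBS, but only 2 passed 2-fold with LPS and none with PTX. In LPS against PBS the 4 probe sets thus ran from -1.33 to -0.13. With the median of the 4 probe sets in place of the brightest, Csf1 was at -0.89 in LPS against PBS, and with median centring at -0.96, so that its 2-fold call ended under either choice.

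Lif, a cytokine of the interleukin 6 family known for keeping mouse embryonic stem cells undifferentiated, was read by probe sets that disagreed. 1421207_at read 61.2 (PBS), 206.3 (LPS) and 71.6 (PTX), a log2 difference of 1.53 with LPS and 0.18 with PTX, and reached the measured level with LPS alone. 1450160_at read 73.8, 55.3 and 76.0 and stayed below the measured level on all 3 arrays, with -0.33 with LPS. The gap of 1.86 between them was wide beside the median gap of 0.46, and the median of both probe sets gave 0.60. The higher Lif level with LPS therefore rests on 1 probe set.

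Osm, the gene of oncostatin M, was highest with PBS at 468.8, against 349.7 with LPS and 276.7 with PTX. The log2 differences of -0.41 and -0.73 were within 2-fold. The difference with LPS came to -0.03 with median centring. The difference with PTX lay between -0.77 and -0.65, always below 0. In the same family Clcf1 (86.3, 112.5 and 62.8) stayed within 2-fold, and Il11 and Il31 were below the measured level.

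Tgfb1, the gene of the regulatory cytokine TGF-beta 1, stayed within 2-fold in all 3 comparisons as deposited. Its brighter probe set 1420653_at read 557.9 (PBS), 803.1 (LPS) and 471.7 (PTX), with log2 differences of 0.51 and -0.23. The other, 1445360_at, read 257.4, 201.5 and 250.1, with -0.33 and -0.04, so that the probe sets lay on opposite sides of the PBS array with LPS. In PTX against LPS the brighter one was at -0.75, and it passed 2-fold with median centring (-1.15) and with a common 75th percentile (-1.06).

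**Figure D2:**
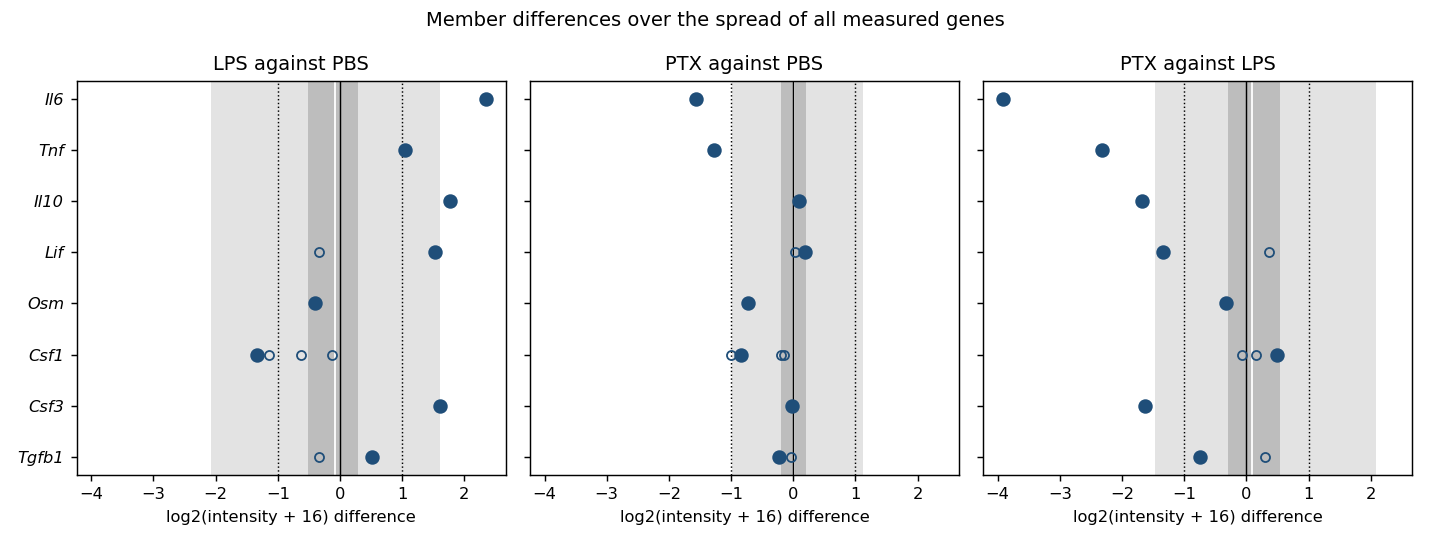
Log2(intensity + 16) difference of each cytokine gene in the 3 comparisons, with filled points for the probe set that represents the gene and open points for its other probe sets. Dark grey covers the middle 50% and light grey the middle 95% of the 12299 measured genes. The white line is their median and dotted lines mark 2-fold. The filled point of Il6 lies outside the light grey band in all 3 panels, and that of Tnf in both PTX panels. That of Il10 lies outside it in both panels with the LPS array, and that of Csf3 in PTX against LPS. The open point of Lif lies across 0 from its filled point in LPS against PBS.

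Genes with the most similar pair of differences (LPS against PBS, PTX against PBS) were found by Euclidean distance over 11645 named genes. Nearest to Il6 were Fst, the activin inhibitor follistatin (2.35 and -1.19), the inflammatory cytokine Il1a (1.88 and -1.40) and the fatty acid receptor Gpr84 (1.83 and -1.37), at distances of 0.38, 0.51 and 0.56. No gene lay within 0.25 of Il6. Around Tnf 4 genes did, led by the steroid receptor cochaperone Fkbp5 (1.04 and -1.15), the fatty acid desaturase Scd2 (0.86 and -1.24) and the lectin receptor Clec4e (1.13 and -1.09), at 0.13, 0.19 and 0.20. Around Il10 there were 64, led by Ptpn13 (1.74 and 0.09), Grm2 (1.76 and 0.06) and Rasgrp1 (1.80 and 0.15). Il10, Ptpn13 and Grm2 reached the measured level on the LPS array alone, so their PTX differences near 0 are between dim readings and the number around Il10 is a description only.

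Of 13 receptor genes for these cytokines 11 were measured, and Lifr and Osmr, the specific chains for LIF and oncostatin M, were not. In LPS against PBS 2 of 11 were lower, beside 13.0% of all measured genes, 0 were higher (6.50% of all genes) and 9 were within 2-fold (median -0.54). In PTX against PBS 1 was higher (3.04% of all genes), 1 lower (2.37%) and 9 within 2-fold (median 0.39). With so few genes these counts say little about the list, and 1 receptor was higher with LPS under median centring or a common 75th percentile.

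Il6ra, the ligand-binding receptor of interleukin 6, read 772.2 (PBS), 134.3 (LPS) and 1016 (PTX), with -2.39 in LPS against PBS and 0.39 in PTX against PBS. Its other measured probe set gave -0.48 with LPS (131.9, 90.3 and 162.1). Il6st, the shared signalling chain, read 777.5, 160.1 and 672.3 (-2.17 and -0.21), and its probe set 1437303_at read 513.0, 62.5 and 477.4 (-2.75). The other measured probe set of Il6st, 1421239_at, gave -0.20. Each measured probe set of both genes thus read lowest with LPS, where Il6 read highest, but the size of the difference varied widely between probe sets of the same gene.

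Csf3r, the G-CSF receptor of the granulocyte lineage, read 303.4 (PBS), 203.6 (LPS) and 1329 (PTX), a log2 difference of 2.07 with PTX, while its ligand Csf3 differed by -0.02. The neutrophil marker sum was lower on the PTX array, and any link to Csf3r was not tested. Tgfbr3, a coreceptor for TGF-beta, was lower with PTX (541.2, 327.8 and 189.9, -1.44), and its other measured probe set was within 2-fold. Csf1r read 9043, 12166 and 11151, within 2-fold of PBS with either stimulus. The TNF receptor Tnfrsf1b read 2342, 4627 and 4259 (0.98 and 0.86) and Tnfrsf1a 1853, 1611 and 2183 (-0.20 and 0.23), and the interleukin 10 receptor chain Il10ra was at -0.72 and 0.39.

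Among 16 measured signal transducers, each read by its brightest probe set, 1 was lower with LPS (13.0% of all genes) and 15 were within 2-fold. With PTX all 16 were within 2-fold, beside 3.04% of all genes higher and 2.37% lower. The lower one was Smad3, a mediator of TGF-beta signals (131.1, 50.9 and 151.5, -1.14). The number lower with LPS was 0 with a pseudocount of 64, with median centring, with quantile normalization, with a common 75th percentile, with the median of all probe sets and with the measured level at the 75th percentile. The number higher with LPS was 3 with median centring. Stat3, the main factor downstream of the interleukin 6 and interleukin 10 receptors, was at 0.23 and 0.70. Its probe set 1426587_a_at gave -0.83 and 0.92, and 1459961_a_at gave 0.11 and 1.06. Other measured probe sets passed 2-fold with LPS for Jak1 (-4.00), Smad4 (-2.07), Grb2 (-1.16) and Jak2 (1.67), so the count depends on the probe set read. Of the 14 feedback inhibitors 4 were higher with LPS (6.50% of all genes) and 0 lower (13.0%), with a median of 0.44, and with PTX 1 was higher (3.04%) and 0 lower (2.37%), with a median of -0.05. In that list, other measured probe sets of Ptpn11 (-1.82 and -1.82) and Ski (-1.46) were lower with LPS.

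Socs3, which blocks interleukin 6 receptor signals, read 626.8 (PBS), 4613 (LPS) and 1537 (PTX), with 2.85 and 1.27, and its 2 other probe sets were at least 2-fold higher with each stimulus. Socs1 read 67.3, 581.1 and 78.7 (2.84 and 0.18). Tnfaip3, the A20 inhibitor of TNF signals to NF-kB, read 1598, 3500 and 864.6 (1.12 and -0.87), the same order as Tnf. Nfkbia, which holds NF-kB in the cytoplasm, read 7569, 15950 and 6659 (1.07 and -0.18), and over its 5 probe sets the LPS difference ran from 0.86 to 1.07. The number of feedback inhibitors higher with LPS was 2 with quantile normalization and 2 when scaled on the added controls, where 1 was also lower.

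Regulators of cytokine RNA and transcription were mostly within 2-fold in their brightest probe sets. Of 16 measured genes for cytokine mRNA stability 2 were higher and 1 lower with LPS (6.50% and 13.0% of all genes), and 1 was higher and 1 lower with PTX (3.04% and 2.37%), with medians of -0.03 and 0.01. The 2 that were higher with LPS, Zc3h12a and Arid5a, were not so with a pseudocount of 64 or when scaled on the added controls, where 0 were higher, and 4 were higher with median centring. Zc3h12a, a nuclease that degrades Il6 mRNA, read 252.5, 567.3 and 315.2 (1.12 and 0.30). Arid5a, which stabilizes Il6 mRNA, read 108.1, 278.1 and 360.9 (1.24 and 1.60), and was thus highest with PTX, where Il6 was lowest. Dusp1, a phosphatase that shuts off the kinase p38, read 4764, 7845 and 2243 (0.72 and -1.08). Zfp36, which destabilizes Tnf mRNA, was at 0.17 and -0.16. Tia1, a translational repressor of Tnf mRNA, was at -1.44 with LPS in its brightest probe set and within 2-fold in its 5 others. Other measured probe sets passed 2-fold with LPS for Rc3h2 (-2.30 and -1.47), Zfp36l1 (-1.60), Mapk14 (-1.31) and Elavl1 (1.05).

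Of 28 transcription factors tied to cytokine genes, 25 were within 2-fold in each comparison with PBS (medians -0.20 and 0.04). With LPS 2 were higher (6.50% of all genes) and 1 lower (13.0%), and with PTX 2 were higher (3.04%) and 1 lower (2.37%). These counts read the brightest probe set. Other measured probe sets passed 2-fold with LPS for Sp1 (-2.22), Nfatc1 (-1.42 and -1.12), Maf (-1.34), Irf3 (-1.17), Jun (-1.04) and Cebpd (1.89). With LPS Batf (2.02) and Crem (1.00, at the threshold) were higher and Atf3 was lower (-1.61). With a pseudocount of 64 only 1 was higher, and when scaled on the added controls 1 was higher and 4 were lower. With PTX Irf1 (1.46) and Maf (1.42) were higher, and the immediate early factor Egr1 was lower (-2.17; 1160, 591.7 and 245.5), where quantile normalization gave 3 lower in place of 1. Maf, a factor that drives Il10 in macrophages, read 761.8, 686.4 and 2064, and its 4 other measured probe sets were at least 2-fold higher with PTX, whereas Il10 itself differed by 0.09. Nfkbiz, a cofactor for Il6 transcription, was at 0.23 and -0.94, and the NF-kB subunits Rela (-0.19 and 0.06) and Rel (0.08 and -0.24) hardly differed.

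**Figure D3:**
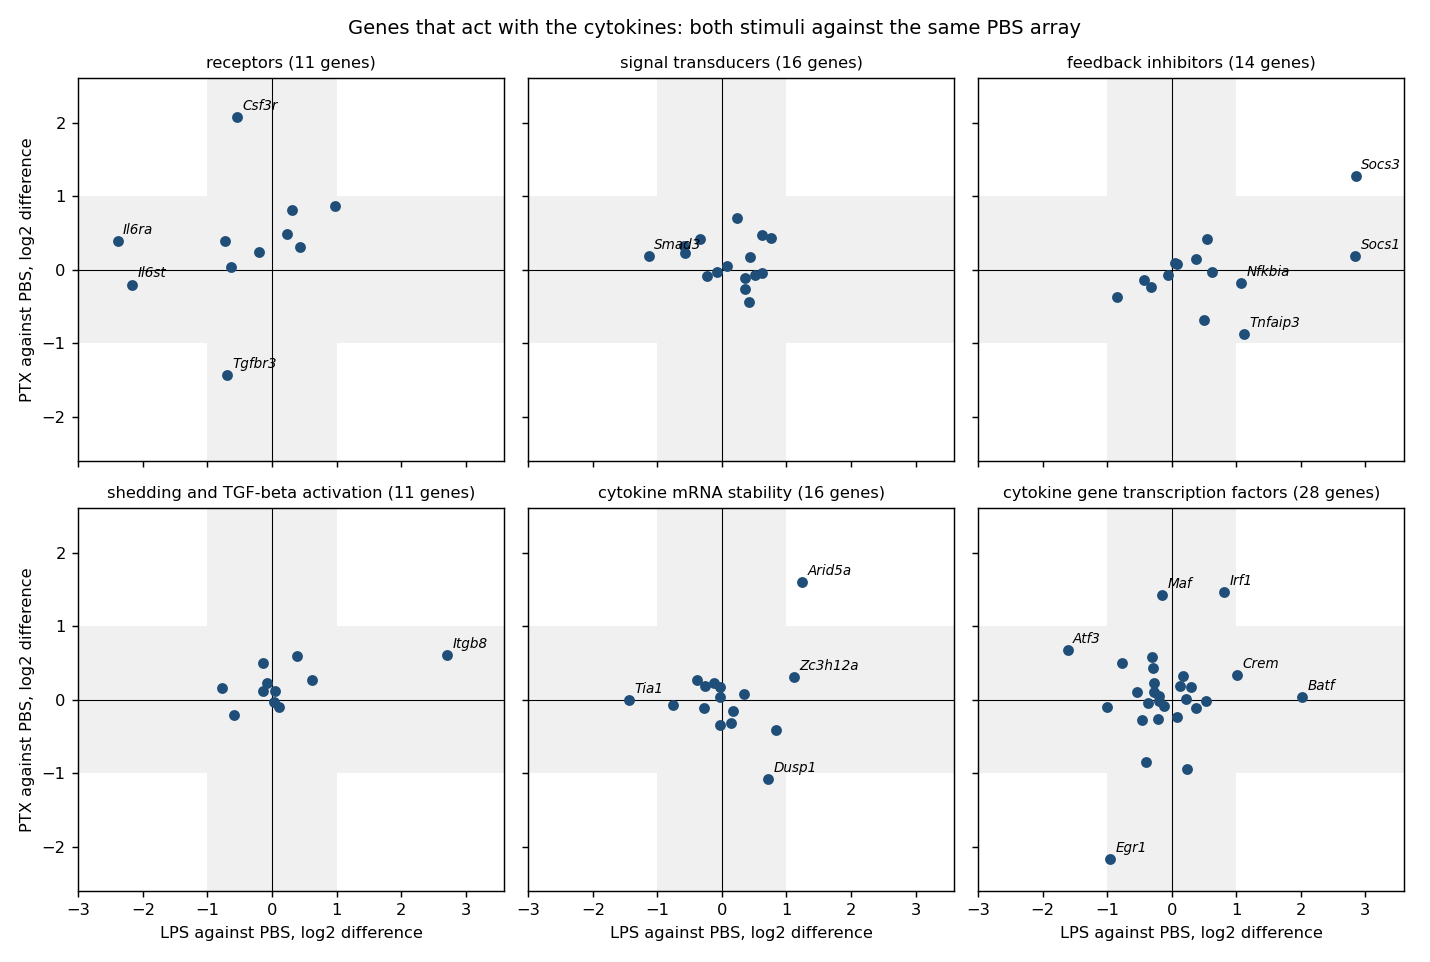
Log2 difference of each measured gene in LPS against PBS (horizontal) and in PTX against PBS (vertical) for 6 lists of genes that act with the cytokines, with 1 point per gene and names where either difference is at least 1. Grey bands mark differences under 2-fold on either axis; both axes share the PBS array, so no correlation is read from the plot, and Il6ra and Il6st lie far left while Socs1, Socs3 and Itgb8 lie far right.

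Genes that release or activate the cytokines were mostly within 2-fold in their brightest probe sets, as were most measured genes. Of 11 measured, 1 was higher with LPS (6.50% of all genes) and 0 lower (13.0%). The higher one was Itgb8, an integrin chain that activates latent TGF-beta (20.6, 224.2 and 39.8, 2.71). None was 2-fold apart with PTX, beside 3.04% of all genes higher and 2.37% lower. Mmp14 was at 0.38 with LPS in its brightest probe set, but 1416572_at read 159.7, 1151 and 283.6 (2.73). Adam17, the protease that sheds TNF, was at 0.05 and 0.12, and Furin, which cleaves the TGF-beta precursor, at -0.13 and 0.11. Of 13 measured genes known to respond to interleukin 10, 3 were higher with LPS (Socs3, Fcgr1 2.73, Ddit4 2.17), beside 6.50% of all genes, and 3 with PTX (Fcgr1 2.79, Socs3, Nfil3 1.13), beside 3.04%, with medians of 0.28 and 0.49. The LPS count depends on the probe set read. Il1rn was at 0.91 in its brightest probe set and at 2.08 and 2.92 in the others. Other measured probe sets gave 2.42 for Il4ra and -1.02 for Sbno2. This list shares Socs3, Bcl3, Zfp36 and Il10ra with the lists above, and Fcgr1 with the macrophage markers, whose summed intensity was higher with both stimuli; their part in these counts was not tested.

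Of 18 related ligands 5 were measured, 10 were below the measured level and 3 had no probe set with a single symbol. Csf2, the gene of GM-CSF, read 23.8 (PBS), 86.2 (LPS) and 21.1 (PTX), 1.36 with LPS. Inhba, the activin A subunit, was the only one bright on all 3 arrays (1612, 2047 and 531.8), at 0.34 with LPS and -1.57 with PTX. Ltb, lymphotoxin beta of the TNF family, read 202.1, 85.9 and 62.3 and was lower with both stimuli (-1.10 and -1.48). Its call with LPS ended with a pseudocount of 64, median centring, quantile normalization, a common 75th percentile and the higher measured level, and that of Csf2 with a pseudocount of 64, scaling on the added controls and the higher measured level. Ctf1 read 98.5, 50.5 and 111.8 and was within 2-fold, but close to it in PTX against LPS (0.94). With a pseudocount of 1 in place of 16, 1 related ligand was higher in that comparison, in place of 0.

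**Figure D4:**
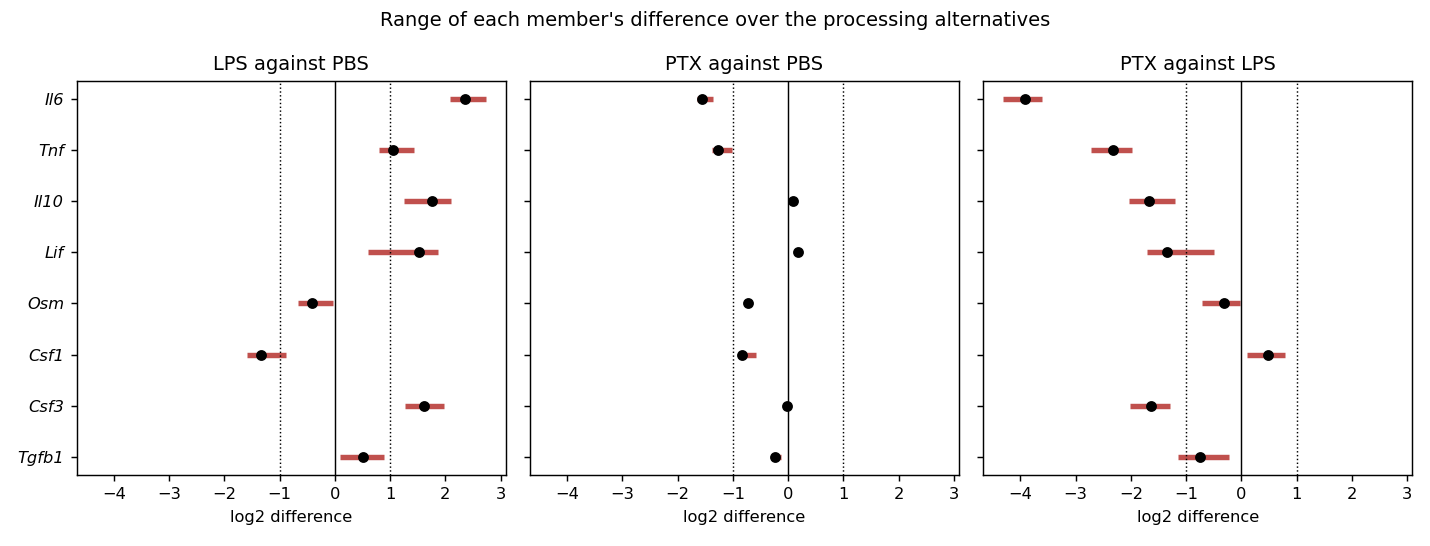
Log2 difference of each cytokine gene as reported (black point) with the range over the processing alternatives (red bar) in the 3 comparisons; dotted lines mark 2-fold. The bars of Il6, Il10 and Csf3 stay beyond 2-fold with LPS, those of Tnf, Lif and Csf1 cross it, and those of Il6 and Tnf stay beyond 2-fold with PTX.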

How the data were processed

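RNA of 3 dendritic cell cultures was measured, 1 each with PBS, LPS or PTX. Per the labels' protocols, biotinylated cRNA was made from 3 µg of total RNA by Affymetrix one-cycle labelling. The deposited values are linear intensities, 1 for each probe set. The sources used here do not name the program, the background correction or the scaling, so differences between arrays can include unremoved scale differences. Probe sets were named through the platform's annotation, and 932 with several symbols and 9160 with none listed were left out, as were 64 controls.

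Log2 values were taken after adding 16, and the probe set of highest mean log2 value stood for each gene. Genes named are all 8 members, genes of the fixed lists and the 3 nearest genes to Il6, Tnf and Il10. Members and lists were chosen with earlier results of these data known. The counting was run on simulated arrays without noise, in which chosen genes were changed by a fixed fold past the threshold. That run checks the code alone and says nothing about noise or scale differences between arrays. Python 3.11.15, pandas 2.3.3 and numpy 2.4.6 were used. Of 12 alternatives, 10 changed the values or genes and 2 the fold. Precision is limited by the number of arrays, and with 1 per group there is no standard deviation and no p-value.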

Additional observations from a re-analysis of the deposited data

How the results depend on the processing

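No paired analysis was possible because each group held 1 array. Of 234 recomputed member differences, 225 kept their side of 2-fold, 7 dropped below it, 2 passed it and 0 turned direction past 2-fold. Those that dropped were Tnf (pseudocount of 64, added controls), Lif with LPS (median of all probe sets), Lif in PTX against LPS (pseudocount of 64; median of all probe sets, -0.49) and Csf1 with LPS (median centring, median of all probe sets). The 2 that passed were Tgfb1 in PTX against LPS (median centring, common 75th percentile).

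Members at least 2-fold lower in LPS against PBS numbered 0 in place of 1 with median centring, with the median of all probe sets and with a 3-fold threshold. With the measured level at the 75th percentile, where Il10 and Lif were no longer measured, 3 in place of 5 were higher in LPS against PBS and 3 in place of 5 lower in PTX against LPS. With a 3-fold threshold 3 were higher with LPS and 0 lower with PTX, and with a 1.5-fold threshold 4 were lower with PTX (Il6, Tnf, Csf1 and Osm). The other counts of members stayed within 1.5 times.

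Over all genes in LPS against PBS, 799 higher and 1601 lower became 1622 and 1018 with median centring, 989 and 1182 with quantile normalization, 1367 and 1130 with a common 75th percentile and 507 and 2222 with scaling on the added controls. Of 576 recomputed list counts, 449 stayed within 1.5 times. With 1 array per group nothing here measures the spread between cultures.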
